A study of Saccharomyces cerevisiae with 25 samples.

Results

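The comparison described here sets the budding yeast strain that lacks NOT3 (not3 null) against the wild-type strain, both grown in glucose-rich medium and collected in exponential phase. It rests on 4 of the 25 arrays of the study, chosen by their labels: 2 of not3 and 2 of wild type, with 1 array per sample. The labels state that each strain was prepared 2 times independently, so p-values here speak for repeated preparations. Exponential-phase arrays of 6 more strains, labelled not2, not4, not5, caf1, caf130 and ccr4 null (10 arrays), serve below to show where not3 and wild type stand among the other strains. CAF130 was not low in the arrays labelled caf130 (5.92 and 6.6, against 5.6 and 5.30 in wild type), so their label is in doubt. The sources used here do not give the strain background, how each gene was deleted or how many clones stand behind a strain.

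Ccr4-Not is a conserved complex that acts on messenger RNA. Ccr4 and Caf1 shorten poly(A) tails, Not4 is a ubiquitin ligase, and Not1 is the scaffold on which the other subunits assemble. Not2, Not3 and Not5 form the NOT module bound to Not1, and in yeast Not3 and Not5 are related proteins. In the gene names of the array annotation, Not1 is CDC39, Not2 is CDC36, Not4 is MOT2 and Caf1 is POP2.

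The values are log2 intensities per probe set, and a difference of 1 is a 2-fold change. The array medians were 5.22 and 5.24 in not3, against 5.27 and 5.20 in wild type, with lower quartiles of 3.61 and 3.59 in not3 and 3.68 and 3.71 in wild type. The 2 not3 arrays differed from each other by a median of 0.252 per gene, and the 2 wild-type arrays by 0.241. Differences of over 1 between the arrays of a strain were found for 219 genes in not3 and for 165 in wild type.

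The deleted gene was low in the arrays labelled not3. NOT3 read 2.31 and 2.25 in not3, against 5.40 and 4.94 in wild type, a difference of -2.89 ± 0.34 (SE, n = 2 each, limma, adjusted p = 8.1e-05). Both not3 arrays lay below the lower quartile of their array, so those readings are near background. None of the other 8 subunit genes was called. NOT5 had 6.52 and 6.86 in not3 and 6.68 and 6.57 in wild type, so the groups overlapped, and its difference was 0.06 ± 0.31. CDC36, CCR4, MOT2, POP2, CAF40 and CAF130 differed by -0.45 to 0.36. CDC39 read 4.64 and 5.09 in not3 against 6.98 and 5.91 in wild type, which is -1.57 ± 0.49 and missed the threshold (limma, adjusted p = 0.077). CDC39 is represented by 9 probe sets, the other 8 of which differed by -1.20 to -0.05.

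Of 5656 genes tested, 173 (3.06%) passed an adjusted p of 0.05 (limma, Benjamini-Hochberg). Of these 132 (2.33%) rose in not3 and 41 (0.725%) fell. With a trend on gene length removed from the values, a setting chosen after the data were seen, 117 rose and 67 fell. The median difference of all genes was 0.05. The called differences had a median size of 1.48 and none was below 0.96, while 26 of the genes that rose and 5 of those that fell changed over 4-fold. All 173 had not3 arrays that did not overlap those of wild type, which was also true of 57.0% of all genes. Leaving out not3 replicate 1 gave 47 calls and leaving out not3 replicate 2 gave 111. Leaving out wild-type replicate 1 gave 15, and leaving out its replicate 2 gave 72. The calls that were made in all 4 of these smaller sets were 9: PHO84, HXT4, HXT6, COS8, YPC1, FIG1, ASG7 and VTC3, all higher in not3, and NOT3 itself.

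**Figure D1:**
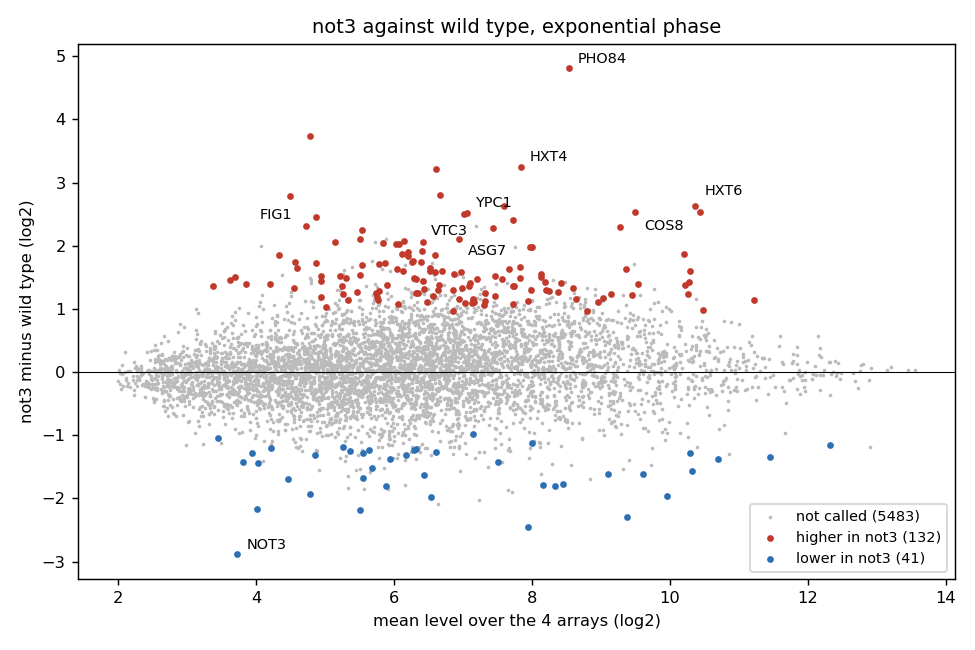
Difference between not3 and wild type (log2, vertical axis) against the mean level over the 4 arrays (log2, horizontal axis) for 5656 genes. Red points are the 132 genes called higher in not3 and blue points the 41 called lower, and the 9 genes called whichever array was left out are named. PHO84 lies highest at 4.81 and NOT3 lowest at -2.89.

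The phosphate regulon held the largest difference. These genes serve phosphate uptake and storage and are switched on in yeast by the transcription factor Pho4 when phosphate is scarce. Of 27 members measured (of 29 listed), 8 rose and 1 fell, and the median difference was 0.64, beside 0.05 for all genes. In 20 of the 27 both not3 arrays lay above both wild-type arrays, which was true of 32.4% of all genes. The count of members that rose was 6 without either not3 array and 3 without either wild-type array.

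PHO84, the high-affinity phosphate transporter of the plasma membrane, read 10.92 and 10.95 in not3, against 6.44 and 5.81 in wild type. The difference was 4.81 ± 0.44, or 28-fold (limma, adjusted p = 3.86e-06). The not3 arrays agreed closely and lay far above wild type. SPL2, which encodes a small protein that restrains low-affinity phosphate uptake, read 6.59 and 6.71 in not3 and 3.0 and 2.84 in wild type (3.73 ± 0.68, adjusted p = 0.00575). Both wild-type readings of SPL2 were below the lower quartile of their array. SPL2 lost its call without wild-type replicate 1 (adjusted p = 0.0646).

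VTC3, a subunit of the complex that makes vacuolar polyphosphate, read 7.28 and 7.63 in not3 against 5.55 and 5.25 in wild type (2.05 ± 0.32, adjusted p = 0.00214). PHO5, the secreted acid phosphatase, read 7.30 and 6.78 in not3 against 5.28 and 5.08 in wild type (1.87 ± 0.35, adjusted p = 0.00669). For both genes the not3 arrays lay above the wild-type arrays by more than the arrays of either strain differed. The other 4 members that rose, named after their values were seen, were PHO8, PHO81, PHM6 and VTC4. PHO8, the vacuolar alkaline phosphatase, read 7.29 and 7.34 in not3 and 5.85 and 5.59 in wild type (1.59, adjusted p = 0.00575).

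The activator gene moved the other way. PHO4 read 3.22 and 2.61 in not3 against 5.6 and 4.59 in wild type (-2.17 ± 0.59, adjusted p = 0.0482). Both not3 readings of PHO4 were below the lower quartile of their array, near background. The call lies at the threshold and was lost when any 1 of the 4 arrays was left out. Of the genes of other regulators, PHO81, which encodes an inhibitor of the Pho80-Pho85 kinase, rose (1.40, adjusted p = 0.0297), while PHO2 (0.27), PHO80 (0.55) and PHO85 (0.51) were not called. Nor was PHO89, the sodium-coupled phosphate transporter, at 0.67 ± 0.43.

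**Figure D2:**
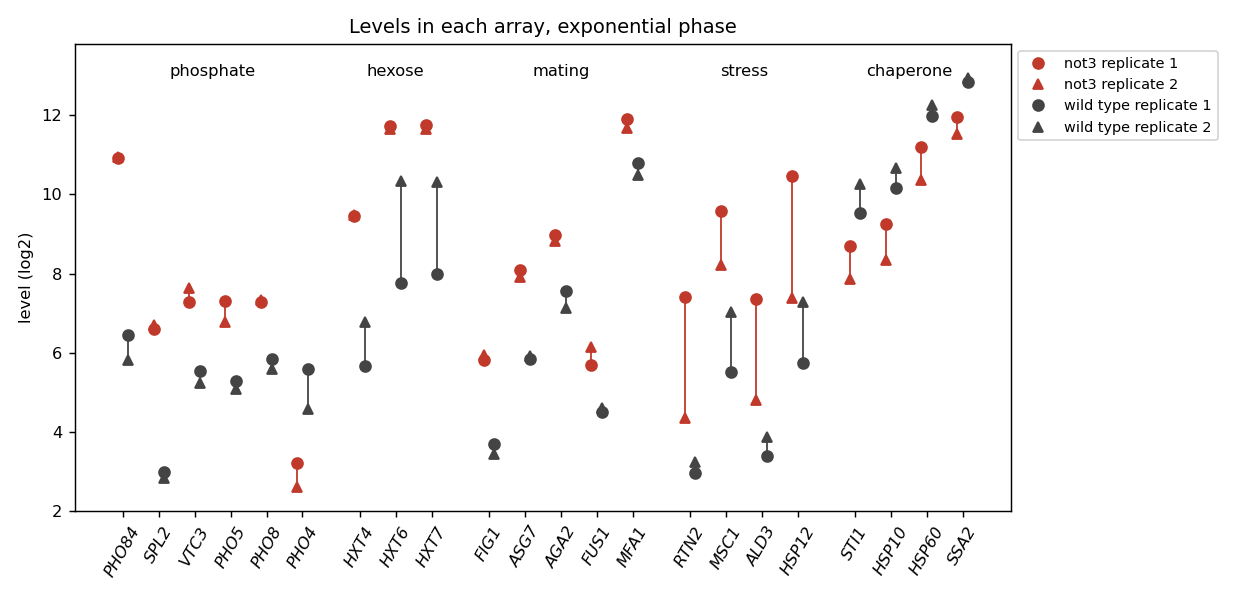
Level (log2, vertical axis) of 22 genes in each array, with not3 in red at the left and wild type in grey at the right of each pair, circles for replicate 1 and triangles for replicate 2. The 2 not3 arrays nearly coincide for PHO84 and HXT4, while for the stress genes RTN2 and HSP12 not3 replicate 1 lies far above replicate 2.

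Among hexose transporters, 3 of 12 measured genes (of 19 listed) rose, none fell, and the median difference was 0.71. All 3 encode high-affinity carriers. HXT4 read 9.44 and 9.49 in not3, against 5.66 and 6.77 in wild type (3.25 ± 0.40, 9.54-fold, limma, adjusted p = 0.000137). The wild-type arrays of HXT4 differed by over 1 from each other, yet both lay far below not3. HXT6 read 11.72 and 11.64 in not3 against 7.77 and 10.34 in wild type (2.62 ± 0.46, adjusted p = 0.00572), and HXT7 read 11.75 and 11.65 in not3 against 7.99 and 10.33 in wild type (2.54 ± 0.44, adjusted p = 0.00551). HXT6 and HXT7 are near-identical copies read by probe sets of lower specificity, so they cannot be told apart and count as 1 observation. The wild-type replicates of both were 2.3 to 2.6 apart: without wild-type replicate 1 the difference of HXT7 was 1.37 (adjusted p = 0.0646). HXT1, a low-affinity carrier, had -1.10 and was not called.

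Other genes of sugar and reserve metabolism showed the same spread between the wild-type arrays. HXK1, a hexokinase that is repressed by glucose, read 10.92 and 9.92 in not3 against 6.64 and 9.62 in wild type (2.29 ± 0.56, limma, adjusted p = 0.0331). GLC3, the glycogen branching enzyme, read 9.52 and 8.45 in not3 against 6.01 and 8.02 in wild type (1.97 ± 0.48, adjusted p = 0.0297). In both genes wild-type replicate 2 was much closer to not3 than replicate 1 was, and both calls were lost without not3 replicate 1, and likewise if wild-type replicate 1 was left out. GLC3 was the only gene called of 20 in the trehalose and glycogen list, whose median was 0.70. Leaving out not3 replicate 1 or wild-type replicate 1 gave 0 calls in that list (medians 0.24 and 0.21), leaving out not3 replicate 2 gave 3 (median 1.12) and leaving out wild-type replicate 2 gave 7 (median 0.98). SUC2, the invertase, read 8.24 and 7.29 in not3 against 6.38 and 6.42 in wild type (1.37 ± 0.34, adjusted p = 0.0373), but its other 2 probe sets, at 0.87 and -0.05, were not called. HXK1 and SUC2 were the 2 genes called among 35 of glucose-repressed carbon use, whose median was 0.13. With 1 of the 4 arrays left out, 0 to 3 of those 35 were called. None of 20 genes of glycolysis and fermentation and none of the 13 listed here under the TCA cycle was called, where 3.06% of all genes were. Their medians were -0.04 and 0.33, beside 0.05 for all genes. Both not3 arrays lay above both wild-type arrays in 9 of the 13 TCA genes, as in 32.4% of all genes, and below them in 1. The TCA list does not hold SDH3, a subunit of succinate dehydrogenase, which rose (1.63) and is counted below with respiration.

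Several mating genes rose in not3. Cells of mating type a express a set of a-specific genes (a-factor, the receptor for alpha-factor, the Bar1 protease), and pheromone induces a further set. STE2, the receptor gene of a cells, read 8.21 to 9.29 in the 4 arrays, while STE3, that of alpha cells, read 3.34 to 3.52, below the lower quartile of every array. All 8 genes listed here as a-specific lay higher in both not3 arrays than in both wild-type arrays, beside 32.4% of all genes. The gap was narrowest for AGA1, at 0.06. Of the 8, 3 were called, and the median was 0.86. None of the 4 alpha-specific genes was called, and their median was 0.07, but they were not all low like STE3. SAG1 read 7.79 and 7.29 in not3 against 6.76 and 6.60 in wild type, a difference of 0.86 without overlap. MF(ALPHA)1 read 4.52 to 4.64 in the 4 arrays, above their lower quartiles, and MF(ALPHA)2 read 3.22 to 3.49, below them.

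ASG7, which adjusts signalling after mating, read 8.08 and 7.91 in not3, against 5.86 and 5.92 in wild type (2.11 ± 0.34, limma, adjusted p = 0.00299). AGA2, the binding subunit of a-agglutinin, read 8.97 and 8.83 in not3 against 7.56 and 7.13 in wild type (1.55 ± 0.35, adjusted p = 0.0222). MFA1, which encodes a-factor, read 11.90 and 11.69 in not3 against 10.81 and 10.49 in wild type (1.15 ± 0.28, adjusted p = 0.0298). That reading of MFA1 is from a probe set of lower specificity, and its other probe set, at 0.75, was not called (adjusted p = 0.374). In these 3 genes the arrays of a strain differed by at most 0.43. The calls of AGA2 and MFA1 were lost when any 1 of the 4 arrays was left out. STE2, STE6, BAR1, MFA2 and AGA1 had differences of 0.51 to 0.86 that missed the threshold.

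Of 37 genes induced by pheromone, 3 rose and none fell, and the median was 0.33. FIG1, a membrane protein of the mating projection, read 5.83 and 5.94 in not3, against 3.69 and 3.44 in wild type (2.31 ± 0.32, 4.97-fold, limma, adjusted p = 0.000609). FUS1, needed for cell fusion, read 5.70 and 6.14 in not3 and 4.52 and 4.6 in wild type (1.36 ± 0.33, adjusted p = 0.0305). PRM2, needed for nuclear fusion, read 4.6 and 4.51 in not3 and 3.62 and 2.70 in wild type (1.40 ± 0.38, adjusted p = 0.0497). PRM2 is also the next gene to NOT3 on its chromosome. It was the only gene called among the 4 measured on either side of NOT3, and its call, like that of FUS1, was lost when any 1 of the 4 arrays was left out. FIG1 alone of the genes induced by pheromone was called higher whichever array was left out. STE14, which methylates a-factor and was named after its value was seen, also rose (1.5, adjusted p = 0.00644).

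**Figure D3:**
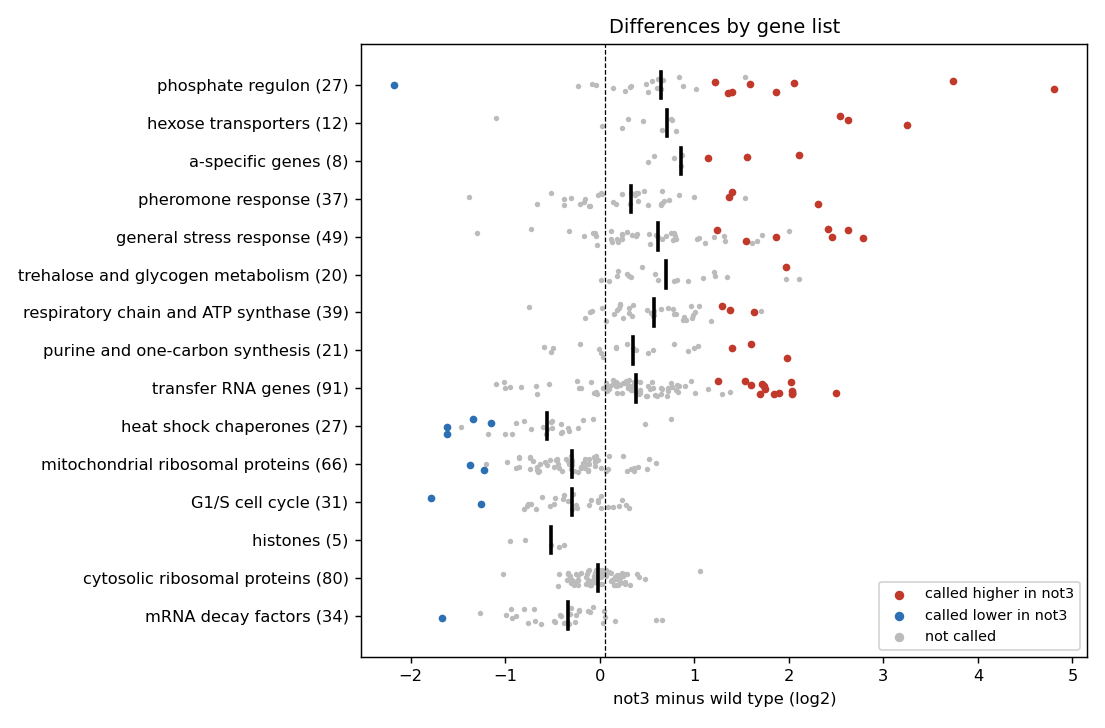
Differences between not3 and wild type (log2, horizontal axis) for the measured members of 15 gene lists, with the number of members in brackets. Red and blue points were called higher and lower, grey points were not called, black bars are list medians and the dashed line is the median of all genes, 0.05. The a-specific genes have the highest median of the lists drawn, 0.86, and the heat shock chaperones the lowest, -0.56.

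Some general stress genes rose, but unevenly between replicates. Of 49 members 7 rose and none fell, with a median of 0.62. RTN2, a reticulon, read 7.40 and 4.34 in not3 against 2.95 and 3.23 in wild type (2.78 ± 0.57, limma, adjusted p = 0.0125). HSP12, a small membrane-protecting protein, read 10.47 and 7.38 in not3 against 5.75 and 7.27 in wild type (2.41 ± 0.62, adjusted p = 0.0392). For HSP12, not3 replicate 2 and wild-type replicate 2 were nearly equal. MSC1 read 9.59 and 8.21 in not3 against 5.51 and 7.04 in wild type (2.62 ± 0.47, adjusted p = 0.00575). ALD3, an aldehyde dehydrogenase, read 7.36 and 4.82 in not3 against 3.41 and 3.87 in wild type (2.45 ± 0.52, adjusted p = 0.0146). YGP1, a secreted glycoprotein, read 11.83 and 10.44 in not3 against 8.25 and 10.29 in wild type (1.87 ± 0.48, adjusted p = 0.0385). The remaining calls, named after their values were seen, were GND2 and YJR096W. Of the 49 members, 48 read higher in not3 replicate 1 than in replicate 2, and 46 read higher in wild-type replicate 2 than in replicate 1. Leaving out not3 replicate 1, 0 members rose (median 0.04), and leaving out not3 replicate 2, 16 did (median 1.25). Leaving out wild-type replicate 1, 0 rose (median 0.27), and leaving out its replicate 2, 9 did (median 0.97).

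Some chaperone genes fell in not3. Of 27 heat shock chaperones measured (of 29 listed), 4 fell and none rose, and the median was -0.56. STI1, a partner of Hsp90, read 8.71 and 7.87 in not3, against 9.54 and 10.27 in wild type (-1.62 ± 0.30, limma, adjusted p = 0.00634). HSP10 and HSP60 form the mitochondrial chaperonin. HSP10 read 9.25 and 8.34 in not3 against 10.16 and 10.66 in wild type (-1.62 ± 0.33, adjusted p = 0.0125), and HSP60 read 11.19 and 10.36 in not3 against 11.99 and 12.25 in wild type (-1.35 ± 0.29, adjusted p = 0.018). SSA2, a cytosolic Hsp70, read 11.95 and 11.53 in not3 against 12.83 and 12.94 in wild type (-1.15 ± 0.31, adjusted p = 0.0466). In each of the 4 genes, not3 replicate 2 was the lowest array. The count that fell was 6 when not3 replicate 1 was left out and 0 when not3 replicate 2 was. It was 1 when wild-type replicate 1 was left out and 0 when wild-type replicate 2 was. AHP1, a thioredoxin peroxidase, also fell (-1.38 ± 0.27, adjusted p = 0.00968).

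Smaller groups of calls lay in purine and one-carbon synthesis and in respiration. GCV1, a subunit of the glycine cleavage system, read 8.99 and 8.93 in not3, against 6.97 and 6.98 in wild type (1.98 ± 0.46, limma, adjusted p = 0.0261). ADE1 (1.60 ± 0.38, adjusted p = 0.0297) and ADE8 (1.40 ± 0.29, adjusted p = 0.0125), both enzymes of purine synthesis, rose too. These were 3 of 21 members measured, with a list median of 0.35. The arrays of a strain agreed within 0.25 for these 3 genes, yet none was called once any 1 of the 4 arrays was left out. Of 39 genes of respiration and of the ATP synthase, 3 rose and the median was 0.57: SDH3, a subunit of succinate dehydrogenase (1.63 ± 0.37, adjusted p = 0.0234), NDE1, an external NADH dehydrogenase (1.38 ± 0.24, adjusted p = 0.00551), and ATP7, a subunit of the ATP synthase stalk (1.29 ± 0.34, adjusted p = 0.0445). Leaving out 1 of the 4 arrays gave 0 to 5 members higher (medians 0.35 to 0.88). NDE1 read 10.91 and 10.90 in not3 against 9.45 and 9.61 in wild type. Of 66 mitochondrial ribosomal protein genes 2 fell, MRPL40 (-1.37 ± 0.29, adjusted p = 0.0146) and MRPL27 (-1.22 ± 0.33, adjusted p = 0.0446), and the median was -0.30. Neither was called once any 1 of the 4 arrays was left out.

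Probe sets for transfer RNA genes gave 13 calls of 91 measured, all higher in not3, with a median of 0.38. All 13 are probe sets that match several members of a family, so they are not 13 separate genes, and with such probe sets left out none remained. The highest, YNCJ0008W, read 8.26 and 8.27 in not3 against 5.36 and 6.16 in wild type (2.50 ± 0.41, limma, adjusted p = 0.003). With any 1 of the 4 arrays left out the count was 1 to 8.

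Several genes outside these lists were among the highest. COS8, of a subtelomeric family of membrane proteins, read 10.96 and 10.56 in not3, against 8.31 and 8.15 in wild type (2.53 ± 0.26, limma, adjusted p = 1.79e-05), and its other 2 probe sets rose by 2.23 and 2.40. YPC1, an alkaline ceramidase, read 8.77 and 7.85 in not3 against 5.39 and 6.19 in wild type (2.52 ± 0.34, adjusted p = 0.000476). TPO2, a polyamine exporter, read 8.75 and 7.69 in not3 against 4.35 and 5.65 in wild type (3.22 ± 0.53, adjusted p = 0.003). RTC2, a vacuolar membrane protein, read 8.42 and 7.72 in not3 against 4.81 and 5.73 in wild type (2.80 ± 0.43, adjusted p = 0.00177). In all 4 genes the lower not3 array lay at least 1.66 above the higher wild-type array. TPO2 and RTC2 lost their calls without wild-type replicate 1. ATG22 (1.91), a vacuolar amino acid exporter, and ATG39 (1.65), a receptor for autophagy of the nucleus, were the 2 called of 32 autophagy genes, whose median was 0.04, and leaving out not3 replicate 1 or wild-type replicate 1 left 0 of them called. The permeases AGP1 (1.63) for amino acids and MEP3 (1.36) for ammonium were the 2 that rose of 27 nitrogen catabolite-repressed genes. The median of that list was 0.08, and its member CAR2 fell (-1.96). The iron transporter FET4 (1.48), the zinc-related IZH2 (1.33) and the fatty acid elongase ELO1 (1.43) rose as single called members of their lists. The calls of AGP1, MEP3, CAR2, FET4, IZH2 and ELO1 were lost when any 1 of the 4 arrays was left out.

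The genes that fell had diverse roles. SRO9, an RNA-binding protein, read 7.20 and 6.23 in not3, against 9.05 and 9.28 in wild type (-2.45 ± 0.66, limma, adjusted p = 0.0464). TOS6, a cell wall protein, read 8.47 and 8.0 in not3 against 10.59 and 10.45 in wild type (-2.29 ± 0.55, adjusted p = 0.0297). LAS17, an activator of actin assembly, read 4.59 and 4.23 in not3 against 6.81 and 6.39 in wild type (-2.19 ± 0.48, adjusted p = 0.0188). These 3 calls were lost when any 1 of the 4 arrays was left out. RNR1, the large subunit of ribonucleotide reductase, read 7.12 and 7.42 in not3 against 9.26 and 8.85 in wild type (-1.78 ± 0.37, adjusted p = 0.0133). RNR1 and PCL1, a G1 cyclin (-1.26 ± 0.30, adjusted p = 0.0297), were the 2 called of 31 genes of the G1/S list, whose median was -0.29, and leaving out 1 of the 4 arrays left 0 or 1 of them called. SNR63, a small nucleolar RNA, read 5.72 and 5.36 in not3 against 7.61 and 7.43 in wild type (-1.98 ± 0.36, adjusted p = 0.00575), and SNR74, another, rose (1.44 ± 0.37, adjusted p = 0.041).

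Regulators of transcription and of mRNA decay were also among them. ADA2, a subunit of the SAGA coactivator, read 3.94 and 3.29 in not3 against 5.51 and 5.09 in wild type (-1.69 ± 0.31, limma, adjusted p = 0.00575). CYC8, a general corepressor, read 5.0 and 4.96 in not3 against 6.89 and 6.67 in wild type (-1.80 ± 0.39, adjusted p = 0.0182). MOT1, which removes the TATA-binding protein from DNA, read 2.88 and 3.33 in not3 against 4.69 and 4.35 in wild type (-1.42 ± 0.28, adjusted p = 0.0122). The not3 values of MOT1 were below the lower quartile of their arrays. ADA2 and MOT1 were the 2 called of 57 genes of RNA polymerases and general factors. Of all genes, 3.06% were called in either direction and 0.725% fell. PAT1, an activator of decapping, read 4.78 and 4.64 in not3 against 6.79 and 5.97 in wild type (-1.67 ± 0.39, adjusted p = 0.0285) and was the only call of 34 mRNA decay factors, whose median was -0.34. Further genes that fell were CAR2 (-1.96), HLR1 (-1.93), SRP40 (-1.81), YAH1 (-1.77), CWP1 (-1.56) and PDR5 (-1.27), the last on 1 of its 7 probe sets, the other 6 of which differed by -2.41 to -0.40 without a call. TLC1, the telomerase RNA, fell on 1 probe set (-1.63 ± 0.30, adjusted p = 0.00634) and not on its other (-0.16). The calls of CYC8, CAR2, HLR1, SRP40, YAH1 and PDR5 were lost when any 1 of the 4 arrays was left out. Those of ADA2, MOT1, PAT1, CWP1 and TLC1 were lost without wild-type replicate 1, among others.

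Of the 49 lists, 22 held no call. None of 80 cytosolic ribosomal protein genes measured (median -0.01), 79 of ribosome biogenesis (-0.26), 33 of the proteasome (-0.12), 50 of amino acid biosynthesis (-0.02), 27 of ergosterol synthesis (0.21) or 35 translation factors (-0.23) was called by limma. The median of ribosome biogenesis turned with the array left out, being 0.12 without not3 replicate 1, -0.57 without not3 replicate 2, 0.14 without wild-type replicate 1 and -0.66 without its replicate 2. All 5 histone genes measured lay lower in both not3 arrays than in both wild-type arrays, as did 24.6% of all genes, with a median of -0.52, and none was called. At an unadjusted p under 0.05, 1074 of all 5656 genes passed. None of the 8 marker genes often used in yeast strains was called, HIS3 coming closest at 0.96 ± 0.27 (adjusted p = 0.0504).

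Setting not3 against the mean of the other 6 strains, with no wild-type array, gave 375 calls (6.63%), 219 higher (3.87%) and 156 lower (2.76%). Without the arrays labelled caf130 the count was 253. With array medians centred the split was 294 higher and 107 lower. Leaving out not3 replicate 1 turned the balance, with 24 higher and 44 lower, and leaving out replicate 2 gave 97 higher and 33 lower. Of the glycogen and trehalose genes, 10 of 20 were higher in not3 and none lower, with a median of 0.99, beside -0.00 for all genes. GSY1, a glycogen synthase, read 9.83 and 9.21 in not3, against 6.05 to 7.38 in the other 6 strains (2.95 ± 0.33, limma, adjusted p = 6.61e-05). Wild type had 7.33 and 9.27 for GSY1, so that its second array reached the not3 level. PGM2, which makes the precursor of glycogen, and GAC1, a phosphatase subunit acting on glycogen synthase, were also among the 5 highest, at 2.28 and 2.17, and the other 2 were RTN2 (2.31) and MSC1 (2.19). Not all of these were particular to not3. In the not5 array GAC1 read 7.24, RTN2 5.86 and MSC1 8.31, against not3 means of 6.93, 5.87 and 8.90. PGM2 read 7.81 in not5 against a not3 mean of 9.13. By array PGM2 read 9.83 and 8.43 in not3 and 7.02 and 9.05 in wild type, so those 2 groups overlapped. The 5 lowest were NOT3 (-2.38), the carbonic anhydrase gene NCE103 (-2.31), MNC1 (-2.23), HPF1 (-2.12) and TRP1 (-2.11). For TRP1, a marker gene, not3 (2.21 and 2.46) was close to wild type (2.88 and 2.64), not2 (2.11 and 2.09), not4 (2.32) and not5 (2.68), while caf1 (7.90 and 7.88), ccr4 (7.43 and 6.73) and the arrays labelled caf130 (3.59 and 5.52) were higher.

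Wild type set against the same 6 strains gave 238 calls (4.21%), 74 higher (1.31%) and 164 lower (2.9%). The split was 91 higher and 119 lower with array medians centred, and 97 and 111 with the length trend removed. The comparisons of not3 with wild type and of either with the 6 strains share arrays, so the values are only set side by side. For PHO84 wild type was lower than the 6 strains by a difference of -3.45, while not3 was higher by 1.36. For COS8 the values were -2.29 for wild type and 0.24 for not3, and for FIG1 they were -2.33 for wild type and -0.02 for not3. The 6 strains were far apart for FIG1, so that their mean describes none of them well. Its level was 8.36 in caf1, 9.72 in ccr4 and 6.22 in not5. It was 3.08 in not2, 3.86 in the arrays labelled caf130 and 4.14 in not4, near the 3.57 of wild type. COS8 read 10.34 to 11.18 in the caf1, ccr4, not2, not4 and not5 arrays, a range that holds both not3 arrays, and 9.91 and 10.25 in the arrays labelled caf130. Both wild-type arrays lay below all of these. PHO84 read 8.04 to 11.31 in the strains other than caf130 and 5.79 and 6.21 in the arrays labelled caf130, which were at the wild-type level. HXT4 and RTC2 were highest in not3 of all 8 strains. TLC1 read 7.32 and 7.19 in wild type and 4.83 to 6.56 in the other 6 strains.

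**Figure D4:**
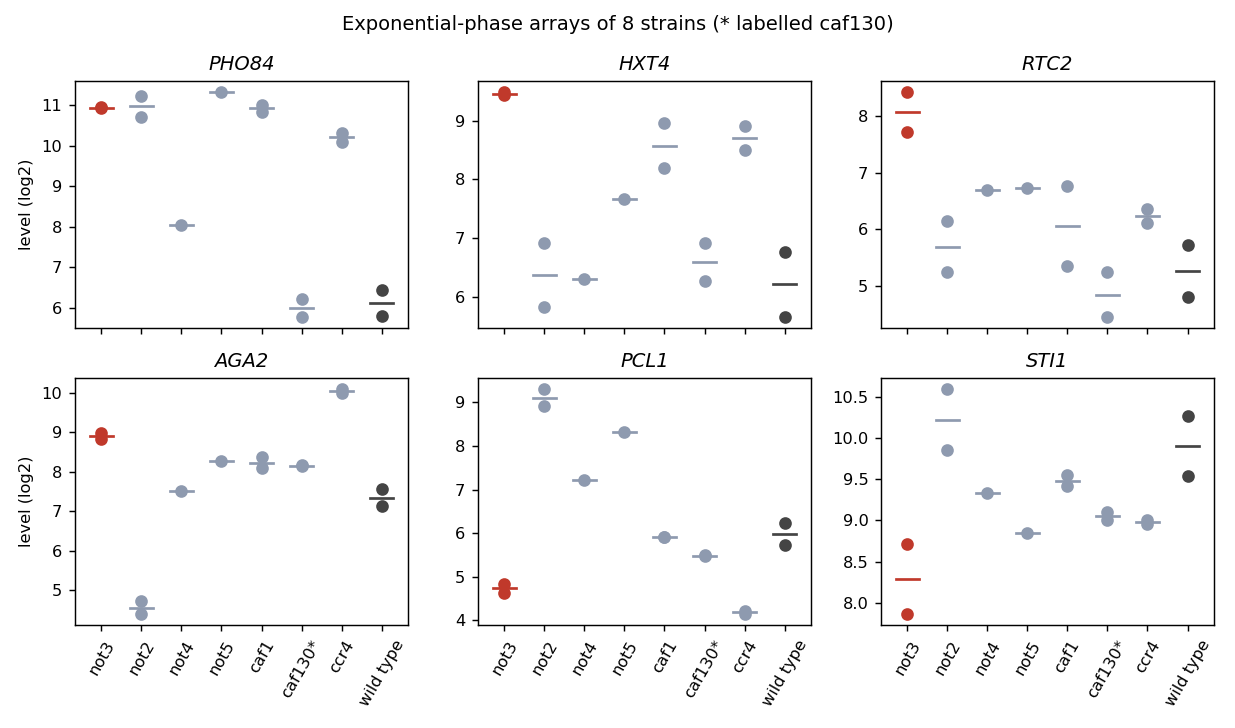
Level (log2, vertical axes) of 6 genes in the exponential-phase arrays of 8 strains, with not3 first and wild type last, points for arrays and lines for means. The arrays marked with a star are labelled caf130, and not4 and not5 have 1 array each. HXT4 and RTC2 are highest in not3, PHO84 is low in wild type and in the arrays labelled caf130, and AGA2 is lowest and PCL1 highest in not2.

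Deletion of another NOT subunit, Not2, gave 1277 calls against wild type (22.6%), of which 877 (15.5%) rose and 400 (7.07%) fell. Between not3 and not2, 1210 genes (21.4%) were called, 501 higher in not3 (8.86%) and 709 lower (12.5%). The balance depended on the setting: there were 644 higher and 507 lower with array medians centred, 641 and 636 with the length trend removed, 687 of each with all probe sets, and 345 and 341 without not2 replicate 2. The 8 genes listed here as a-specific, AGA1 among them, were all higher in not3, with a median of 4.55. MFA1 read 11.90 and 11.69 in not3 and 6.15 and 6.62 in not2 (5.41 ± 0.28, limma, adjusted p = 9.35e-11), and STE2 read 9.29 and 9.26 in not3 and 4.23 and 4.35 in not2 (4.99 ± 0.28, adjusted p = 2.23e-10). BAR1 (5.18) and MFA2 (4.77) were higher in not3 too, so the genes listed as a-specific were low in not2 and not in not3. Of the 37 genes induced by pheromone 15 were higher and 2 lower in not3. CDC36, the gene deleted in not2, was higher in not3 by 4.78. The 5 lowest in not3 were PCL1 (-4.38), NCE103 (-4.0), SNZ1 (-3.86), PHO89 (-3.79) and TIS11 (-3.50). PHO84 differed by -0.03 ± 0.44 and was not called (adjusted p = 0.97), while HXT4 was higher in not3 by 3.10 ± 0.40 (adjusted p = 3.62e-05). Mitochondrial ribosomal protein genes were lower in not3 in 24 of 66 cases and higher in none.

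Against not5, the deletion of the related subunit, 483 genes (8.54%) were called, 284 higher in not3 (5.02%) and 199 lower (3.52%). With array medians centred 411 were higher and 171 lower, with all probe sets 277 were higher and 303 lower, and without not3 replicate 1 143 were higher and 161 lower. The not5 strain has 1 array, whose spread was taken to be that of the other groups. Genes higher in not3 included 13 of 50 of amino acid biosynthesis, 8 of 26 hypoxic and anaerobic genes and 7 of 25 of fatty acid and phospholipid synthesis, with none, 1 and none lower. Genes lower in not3 included 19 of 57 small nucleolar RNAs, 9 of 39 cell wall genes and 7 of 49 stress genes. These counts depend on the level of the not5 array. Against wild type, 1 of those small nucleolar RNAs rose in not3 and 1 fell (median 0.08). In the same comparison 1 cell wall gene fell, 7 stress genes rose and none of amino acid biosynthesis was called. HXT4 was higher in not3 than in not5 and PCL1 was lower (-3.58, limma, adjusted p = 1.29e-05). NOT5 read 6.52 and 6.86 in not3 and 3.90 in the not5 array, a difference of 2.79 ± 0.38.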

How the data were processed

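Per the labels' protocols, acid phenol was used for extraction of total RNA, which was biotin-labelled and hybridised to Affymetrix yeast arrays of 9275 probe sets. The deposited values are log2 values, with a column for each array, from 1.36 to 13.94 with 0 missing. The log base was inferred from the range, and the sources used here do not give the software, background correction, normalization or genome build. The number of arrays limits the precision, and no depth applies.

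Of the probe sets, 6504 are annotated to 1 gene, 328 to several and 2443 to none. Only the first kind was used for genes. Where a gene had several (315 genes), the set with the highest mean was taken, leaving 5656 genes, all matched to the RefSeq R64 gene table. Group means of all 25 arrays were fitted with limma 3.58.1 (R 4.3.3, lmFit, eBayes with an intensity trend), with 11 residual and 9.03 prior degrees of freedom. Adjusted p-values are Benjamini-Hochberg over all 5656 genes and calls were made at 0.05. Errors are the fit's standard errors of the difference. A test on simulated data with 200 changed genes recovered 31% of those of size 1 on the log2 scale and 88% of those of size 2, with 5 false calls. The simulated spread was independent between genes. In the real arrays sets of genes, such as the general stress genes, shifted together between replicates, so these rates need not hold for them.

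Genes were named by rule: the 9 subunits, the 15 highest and 15 lowest calls, up to 5 called members per list, marker and mating-type genes, 4 neighbours on each side of NOT3, and the 5 highest and 5 lowest calls of not3 against not2 and against the other strains. Lists were described by counts and medians, with no test. The comparison, its lists and the rules were chosen with earlier results of these data known. Alternatives covered normalization, probe set choice, dim genes, the arrays in the fit, the intensity trend, gene length, replicate blocks and leaving out each array.

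Replicate numbers were not taken to pair the strains. The deviations of same-numbered not3 and wild-type arrays from their group means correlated at -0.366 over genes, and those of not3 and not2 at 0.276. The per-probe level is not comparable between genes.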

Additional observations from a re-analysis of the deposited data

Results flagged for a closer look

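Outside the genes, 13 of the 2771 probe sets that name no single gene were called between not3 and wild type (0.469%, limma), 9 higher and 4 lower, and the 3 highest are given here as signals the comparison of genes did not use. Probe set 3982_at read 11.03 and 11.18 in not3, against 3.83 and 2.81 in wild type, a difference of 7.78 ± 0.32 (limma, adjusted p = 4.49e-12), larger than that of any named gene. It read between 10.29 and 11.37 in all 9 arrays of not2, not3 and not4, in both growth conditions, and between 2.63 and 4.20 in the 16 arrays of the other strains. What it represents was not worked out here. Probe set 11262_s_at differed by 2.22 (8.21 and 8.32 in not3, 5.94 and 6.16 in wild type) and probe set 3259_at by 2.01 (8.11 and 8.39 in not3, 6.17 and 6.32 in wild type), each with limma's adjusted p = 0.000918.

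For 7 genes not3 and not2 were called in opposite directions against wild type. The genes were chosen for that, and both contrasts use the same wild-type arrays, so the differences of not3 from not2 are given as a description and not as a test. The difference was 5.41 for MFA1, 4.33 for AGA2, 3.76 for ASG7, 2.61 for STE14, 2.57 for FUS1 and 2.33 for SUC2, all higher in not3 than in wild type and lower in not2. For PCL1 it was -4.38, with 4.62 and 4.84 in not3, 9.30 and 8.92 in not2, and 5.73 and 6.24 in wild type.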

How the results depend on the processing

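The drop of NOT3 was called under all 16 alternatives run on it, between -3.12 and -2.65. The count of genes called between not3 and wild type was 173, and was 275 with only the exponential arrays in the fit, 72 without the arrays labelled caf130, and 15 to 111 with 1 of the 4 arrays left out. Under the other 11 alternatives it stayed between 130 and 235. With the replicate number as a block it was 135 (107 higher, 28 lower), and with crossed numbers, chosen after the data were seen because same-numbered deviations correlated below 0, it was 235. Of 69 named calls other than NOT3, 7 held in all 17 alternatives, 37 were lost in at least 1 that left out no replicate, and none reversed; leaving out wild-type replicate 1 lost 58. The 1 call among the neighbours of NOT3, PRM2, was lost in 10 alternatives, every left-out array included. With dim genes left out PRM2 was not tested. Against the other 6 strains, leaving out an array gave 68 to 130 calls for not3 and 14 to 39 for wild type, which had 360 with only the exponential arrays. Between not3 and not2 it gave 485 to 881 (686 without not2 replicate 2), and the replicate block gave 1243. Between not3 and not5 it gave 131 to 304, and 289 without the arrays labelled caf130. The smaller sets have fewer residual degrees of freedom; other causes were not tested.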
